A study of Mus musculus with 13 samples.

Results

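The 30 genes described here make or handle cholesterol: 20 enzymes on the route from acetyl-CoA to cholesterol, 5 genes that control the route, 3 genes of sterol uptake and traffic and 2 exporters. They were taken by symbol from a list drawn up by pathway role, though with earlier results of these data known, and each matched 1 of the 25746 genes of the count table. All 30 passed the filter on low counts that left 16051 genes for testing. Their transcripts were counted in keratinocytes of the skin surface between the hair follicles (interfollicular keratinocytes), sorted from C57/BL6 mice and sequenced in bulk. All mice carried floxed alleles of Il12rb2, which encodes the interleukin-12 receptor chain beta 2. The floxed control mice (Il12rb2fl/fl) had no Cre, and the Il12rb2-deleted mice (K14Cre/+ Il12rb2fl/fl) also had Cre under the keratin 14 promoter, which is active in basal keratinocytes and in the epithelium of hair follicles and sebaceous glands. Each genotype was left untreated (3 floxed control and 4 Il12rb2-deleted libraries) or received Aldara, a cream with 5% imiquimod that is used to raise psoriasis-like inflammation, on the skin for 1 day (3 libraries in each genotype). Mice treated with a cream without imiquimod and mice with Cre but no floxed allele were not analysed here.

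Cells build cholesterol from acetyl-CoA by way of mevalonate, the isoprenoids, squalene and lanosterol, and the isoprenoids also feed protein prenylation, dolichol and coenzyme Q. Most of these enzymes are transcribed under SREBP2, and the fatty acid branch mainly under SREBP1. Scap carries the SREBP precursors from the endoplasmic reticulum to the Golgi for cleavage when sterols are low, and the Insig proteins hold them back when sterols are high. Liver X receptors, which sense oxysterols, raise the exporters Abca1 and Abcg1. In the epidermis, cholesterol is secreted with ceramides and fatty acids to form the lipid barrier of the cornified layer, and its sulfate takes part in shedding of the outer cells.

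Promoters of 4 members are printed because their genes stand for the patterns below: Mvd had the largest increase after Aldara, Hmgcs1 the highest level, Sc5d was the 1 enzyme that fell, and Abca1 is an exporter. Each sequence is the 250 bases before the start of the RefSeq transcript on GRCm38.p6, read 5′ to 3′ on the strand of the gene. Capitals mark matches to 3 motifs on either strand: the sterol regulatory element TCACNCCAC, the E-box CACGTG and the NF-Y box CCAAT, which reads ATTGG on the other strand. No match of 1 motif overlapped a match of another. The windows were Mvd on the minus strand (chr8:122443423-122443672), Hmgcs1 on the plus strand (chr13:119690101-119690350), Sc5d on the minus strand (chr9:42264301-42264550) and Abca1 on the minus strand (chr4:53159896-53160145).
Mvd: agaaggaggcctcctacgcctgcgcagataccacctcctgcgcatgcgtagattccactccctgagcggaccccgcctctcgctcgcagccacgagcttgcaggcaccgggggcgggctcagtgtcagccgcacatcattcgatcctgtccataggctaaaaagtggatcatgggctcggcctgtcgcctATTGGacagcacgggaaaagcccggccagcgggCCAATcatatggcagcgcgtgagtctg
Hmgcs1: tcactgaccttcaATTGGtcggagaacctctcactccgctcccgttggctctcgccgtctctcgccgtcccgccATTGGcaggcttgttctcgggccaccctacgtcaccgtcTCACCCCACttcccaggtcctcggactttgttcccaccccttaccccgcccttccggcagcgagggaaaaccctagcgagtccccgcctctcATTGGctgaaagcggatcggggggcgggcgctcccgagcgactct
Sc5d: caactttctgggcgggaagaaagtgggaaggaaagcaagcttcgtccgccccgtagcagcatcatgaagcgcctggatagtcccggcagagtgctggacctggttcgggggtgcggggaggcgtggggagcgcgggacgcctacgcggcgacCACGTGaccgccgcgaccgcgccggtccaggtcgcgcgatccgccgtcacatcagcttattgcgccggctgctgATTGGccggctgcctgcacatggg
Abca1: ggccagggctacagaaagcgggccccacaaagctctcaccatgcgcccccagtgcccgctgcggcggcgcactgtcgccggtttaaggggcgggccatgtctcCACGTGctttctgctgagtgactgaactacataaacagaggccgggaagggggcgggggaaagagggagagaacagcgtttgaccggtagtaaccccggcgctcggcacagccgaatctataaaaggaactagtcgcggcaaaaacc

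The Mvd window held 2 NF-Y boxes, from base -60 to -56 and from -27 to -23 before the start. Hmgcs1 held 3 NF-Y boxes and the sterol regulatory element TCACCCCAC from -137 to -129. Sc5d held an E-box from -98 to -93 and an NF-Y box from -24 to -20, and Abca1 held an E-box from -147 to -142. A promoter window was found for 24 of the 30 members. Of these, 21 (87.5%) held an NF-Y box, against 37.49% of the 27025 RefSeq genes with a window. The E-box was in 6 of 24 (25.0%), against 6.86% of all genes, and the sterol regulatory element in 1 of 24 (4.167%), against 1.225%. These are matches of letters within a short window, and no binding was measured. The NF-Y box did not separate members by their response: it was present in 9 of 12 members with a window that rose after Aldara over both genotypes, in both that fell, and in all 10 that did not pass the test.

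Total counts per library ran from 5830034 to 22232478, and the lowest count of a member was 0, for Abcg1 in 1 library. Il12rb2 itself was at 17.1, 78.8 and 52.7 CPM (counts scaled to the effective library size) in untreated floxed control libraries and at 22.7, 8.52, 25.6 and 19.0 in untreated Il12rb2-deleted ones, with overlapping ranges. After Aldara Il12rb2 was at 1.98, 8.14 and 2.68 CPM in floxed control and at 0, 1.07 and 1.64 CPM in Il12rb2-deleted libraries (0 counts allow up to 0.307 CPM), and neither difference between genotypes passed the test. The 8 keratinocyte markers, among them Krt14, Krt5, Krt10 and Krt1, were detected in every group, with summed levels of 22081 to 58585 CPM before and 10592 to 19945 CPM after Aldara. Krt14, the largest part, was at 11523 to 32629 CPM before and 6422 to 12647 after. Krt10 and Krt1 were lower by more, from 956 to 2488 and 658 to 1627 CPM before to 22.4 to 169 and 17.1 to 285 after. The list's median log2 fold change after Aldara, averaged over genotypes, was -2.01. Gm10800, a predicted gene, held 14.2%, 5.21% and 10.3% of the counts in 3 untreated libraries (floxed control replicate 2 and Il12rb2-deleted replicates 1 and 2), and at most 2.22% in any other. Il12rb2-deleted Aldara replicate 1 stood apart from the other Aldara libraries on the first principal component. Nothing in the labels ties replicate numbers to separate animals, and p-values measure the spread between these libraries, which may be technical.

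Per kilobase of exon, Hmgcs1, which joins acetyl-CoA and acetoacetyl-CoA into HMG-CoA, had the highest level of the 30 members in every group. Its RPKM (reads per kilobase of exon, scaled to depth) was 93.4 ± 19.6 in untreated floxed control libraries (SD, n = 3) and 153 ± 34.2 after Aldara (SD, n = 3). In Il12rb2-deleted libraries it was 128 ± 28.8 (SD, n = 4) and 143 ± 19.9 (SD, n = 3). The next 4 members in untreated floxed control libraries were Insig2 (37.5 ± 7.70 RPKM), Lbr (36.3 ± 8.01), Fdps (31.8 ± 3.82) and Srebf1 (28.2 ± 3.82), whose SDs overlap for neighbours in the order. Tm7sf2 was the lowest at 3.73 ± 1.01 RPKM. Tm7sf2 and Lbr both code for sterol C14 reductases, and Lbr stood higher than Tm7sf2 in every group. After Aldara the order had moved: Acat2 went from place 12 of 30 to place 2 in floxed control libraries, at 72.6 ± 35.3 RPKM, and Mvd from place 17 to place 3, at 64.2 ± 27.1. At the other end, Abcg1 became the lowest member after Aldara in both genotypes, at 1.03 ± 0.519 and 0.301 ± 0.391 RPKM.

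**Figure D1:**
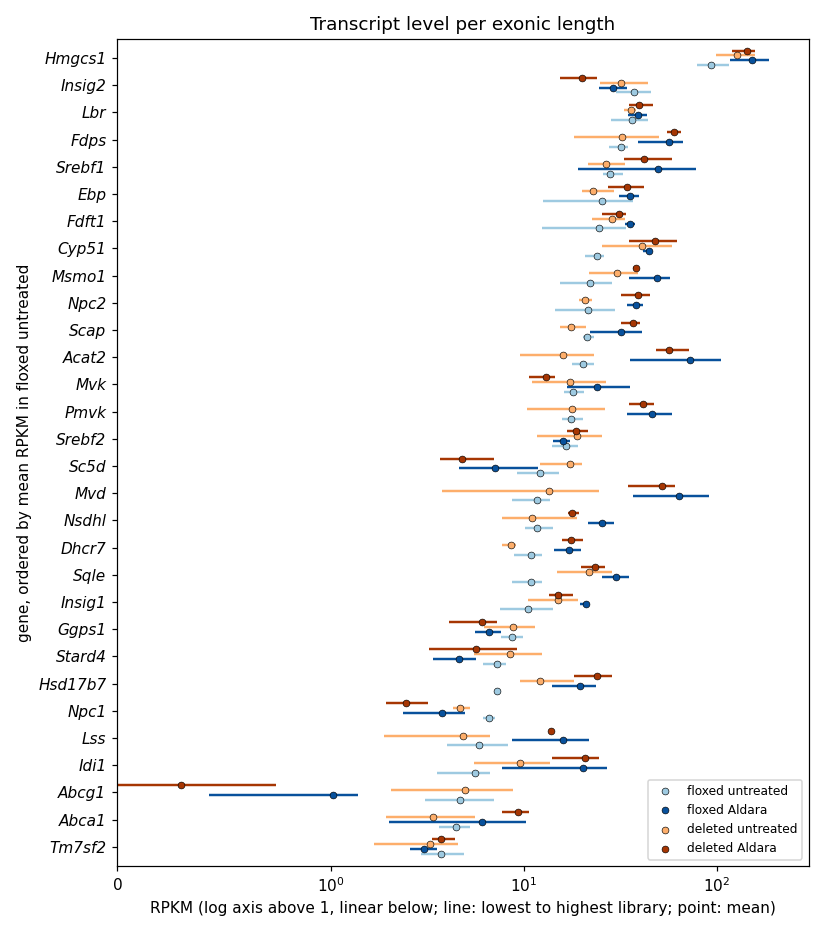
Level of each of the 30 members per kilobase of exon in the 4 groups, on an axis in RPKM that is logarithmic above 1 and linear below; points are group means and lines run from the lowest to the highest library (n = 3, with n = 4 for untreated Il12rb2-deleted). Hmgcs1 is highest in every group, and Abcg1 is lowest after Aldara in both genotypes.

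After Aldara, much of the route to cholesterol was higher and a smaller set of genes around it was lower. With the Aldara effect averaged over both genotypes, 14 of the 30 members rose and 4 fell by edgeR's quasi-likelihood test, that is 18 changed members where 24.9% of all genes tested changed, 2080 of them up and 1914 down. The median log2 fold change of the members was 0.65, against -0.15 over all genes tested. The risers were 5 of 8 enzymes up to farnesyl and geranylgeranyl diphosphate, 6 of 12 enzymes from squalene on, and Scap, Npc2 and Abca1. Those that fell were the enzyme Sc5d, Insig2, Npc1 and Abcg1. The CPM of all 6 Aldara libraries lay above that of all 7 untreated ones for 6 members (Acat2, Pmvk, Mvd, Lss, Dhcr7 and Npc2), where 6.29% of all genes did so, and below it for Abcg1 alone, where 5.48% did so. With each library left out in turn, 16 of the 18 calls held in all 13 fits. Insig2 passed in 3 and Abca1 in 4 of them, with adjusted p-values of up to 0.129 for Insig2 (without floxed control untreated replicate 1) and 0.14 for Abca1 (without floxed control Aldara replicate 1). Without the 3 libraries above 5% Gm10800, a check added after the data were seen, 11 members rose and 3 fell, all of them among the 18. Over all genes tested there, 1432 of 15863 rose and 1190 fell. Fdps, Msmo1, Nsdhl and Insig2 then missed the threshold, with adjusted p-values of 0.0509, 0.101, 0.0756 and 0.0856. In that fit the median log2 fold change was 0.37 for the members and 0.08 for all genes tested. In bulk samples a change in the share of cells and a change in RNA per cell cannot be told apart.

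**Figure D2:**
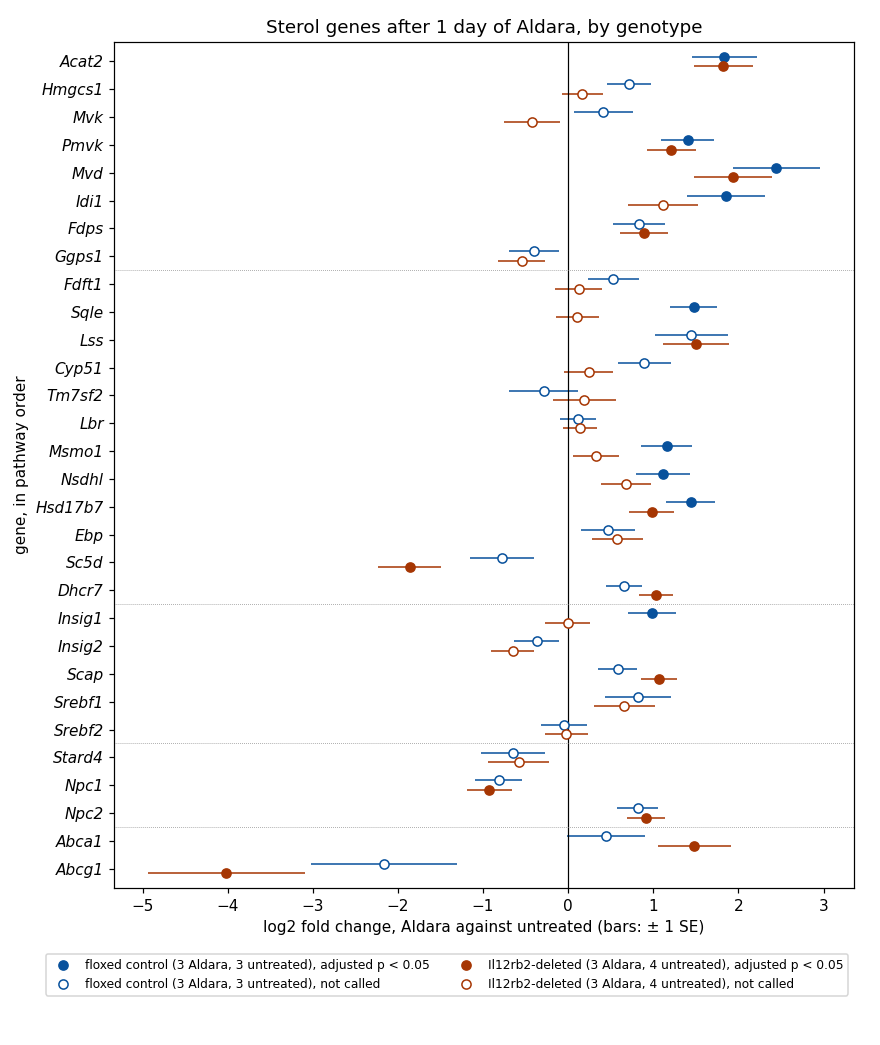
Log2 fold change of each member after Aldara in floxed control and Il12rb2-deleted cells, with bars of 1 standard error, ordered by pathway step; filled points passed an adjusted p of 0.05 in edgeR's quasi-likelihood test. Acat2, Pmvk, Mvd and Hsd17b7 passed in both genotypes, and Abcg1 has the lowest value in both.

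Among the enzymes of the mevalonate and isoprenoid steps, Acat2, Pmvk and Mvd rose in each genotype. Acat2 joins 2 acetyl-CoA into acetoacetyl-CoA. Its level was 58.9, 45.2 and 51.1 CPM in untreated floxed control libraries and 194, 269.6 and 90.9 after Aldara. Il12rb2-deleted libraries held Acat2 at 24.4, 47.9, 59.0 and 30.8 CPM untreated and 124, 183 and 123 after Aldara, so no Aldara library was as low as any untreated one. The log2 fold change was 1.83 (SE 0.38, adjusted p = 0.0119) in floxed control cells and 1.82 (SE 0.35, adjusted p = 0.00295) in Il12rb2-deleted cells. Acat3, a near copy of Acat2, is a separate row of the table, so reads of these genes may have been split. Pmvk, phosphomevalonate kinase, was at 34.5, 28.4 and 27.1 CPM in untreated floxed control libraries and at 79.5, 100.2 and 58.5 after Aldara. Il12rb2-deleted libraries held Pmvk at 17.8, 29.7, 45.1 and 29.8 CPM and, after Aldara, at 72.2, 80.7 and 59.9. Again the Aldara and untreated ranges did not meet, and the log2 fold changes were 1.40 (SE 0.31, adjusted p = 0.0156) and 1.21 (SE 0.28, adjusted p = 0.00986).

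Mvd, mevalonate diphosphate decarboxylase, whose promoter with 2 NF-Y boxes is printed above, had the largest increase of any member. Untreated floxed control libraries held it at 25.5, 16.2 and 23.8 CPM and Aldara libraries at 119.9, 169 and 68.8. In Il12rb2-deleted cells Mvd was at 7.03, 25.7, 45.8 and 22.4 CPM untreated, a wide spread with the lowest value in replicate 1, and at 114, 112 and 64.4 after Aldara. The averaged increase was 4.57-fold, a log2 fold change of 2.19 (SE 0.34, adjusted p = 0.000349). Idi1, isopentenyl diphosphate isomerase, was at 23.0, 12.4 and 23.3 CPM in untreated floxed control libraries and at 94.3, 91.6 and 27.1 after Aldara. Replicate 3 of the Aldara group was close to the untreated level. Il12rb2-deleted libraries gave Idi1 levels of 19.4, 27.7, 48.1 and 38.7 CPM untreated and 82.3, 86.0 and 48.8 after Aldara. Its averaged log2 fold change was 1.48 (SE 0.31, adjusted p = 0.00237).

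Fdps, which makes farnesyl diphosphate, was at 138, 116 and 147 CPM in untreated floxed control libraries and at 282, 266 and 164 after Aldara, with all Aldara libraries of that genotype above its untreated ones. Il12rb2-deleted libraries held Fdps at 76.7, 126, 212 and 131 CPM untreated and at 250.5, 275 and 233 after Aldara. Its averaged log2 fold change was 0.86 (SE 0.21, adjusted p = 0.00723). Fdps shares 26.7% of its exonic length with Gm43738 on the same strand, and how reads of that stretch were counted is not given in the sources used here. The remaining 3 genes of this segment did not pass on average: Hmgcs1 had 0.44 (SE 0.18, adjusted p = 0.0838), Mvk, mevalonate kinase, had -0.01 (SE 0.24), and Ggps1, which makes geranylgeranyl diphosphate, had -0.47 (SE 0.20). The neighbours Mvk, Pmvk and Mvd, which act in sequence, thus had averaged log2 fold changes of -0.01, 1.31 and 2.19. For Mvk the average joined opposite signs, 0.41 (SE 0.35) in floxed control cells and -0.42 (SE 0.33) in Il12rb2-deleted cells, and neither passed.

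From squalene on, Sqle, Lss, Msmo1, Nsdhl, Hsd17b7 and Dhcr7 rose on average. Sqle, squalene epoxidase, was at 68.9, 48.4 and 63.3 CPM in untreated floxed control libraries and at 166, 194 and 142 after Aldara. Il12rb2-deleted libraries held Sqle at 82.8, 88.1, 152 and 158 CPM untreated and at 146, 133 and 109.5 after Aldara. The groups were apart in floxed control cells and overlapped in Il12rb2-deleted cells, where untreated replicates 3 and 4 were above every Aldara library. Its log2 fold change was 1.47 (SE 0.28, adjusted p = 0.00839) in floxed control cells and 0.11 (SE 0.25, adjusted p = 0.843) in Il12rb2-deleted cells, an average of 0.79 (SE 0.19, adjusted p = 0.00585). Lss, lanosterol synthase, was at 89.1, 56.9 and 43.1 CPM in untreated floxed control libraries and at 234, 189 and 93.3 after Aldara. Il12rb2-deleted libraries held Lss at 20.3, 45.4, 71.7 and 72.3 CPM and, after Aldara, at 154, 146 and 145. Its averaged log2 fold change was 1.47 (SE 0.29, adjusted p = 0.00168), with similar values in the genotypes of 1.45 (SE 0.43) and 1.50 (SE 0.39), of which the second passed.

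Msmo1, the sterol C4 methyl oxidase, was at 177, 94.8 and 133 CPM in untreated floxed control libraries and at 352, 336 and 215 after Aldara. Il12rb2-deleted libraries held Msmo1 at 138, 134, 240.2 and 236 CPM untreated and at 237, 239.6 and 227 after Aldara, where the ranges overlapped. Its averaged log2 fold change was 0.74 (SE 0.20, adjusted p = 0.0135). By genotype it was 1.16 (SE 0.30, adjusted p = 0.0299) in floxed control cells and 0.32 (SE 0.27, adjusted p = 0.491) in Il12rb2-deleted cells. Nsdhl, the next enzyme in removal of the C4 methyl groups, was at 30.9, 29.0 and 40.3 CPM in untreated floxed control libraries and at 84.0, 61.5 and 71.2 after Aldara. Il12rb2-deleted libraries held Nsdhl at 23.9, 26.9, 53.7 and 21.8 CPM, with replicate 3 well above the other 3, and at 48.1, 48.9 and 55.1 after Aldara. The averaged log2 fold change of Nsdhl was 0.90 (SE 0.21, adjusted p = 0.00641).

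Hsd17b7, which reduces the ketone left by Nsdhl, was at 38.1, 36.9 and 36.1 CPM in untreated floxed control libraries and at 109, 121 and 71.2 after Aldara. Il12rb2-deleted libraries held Hsd17b7 at 48.6, 54.3, 93.5 and 52.7 CPM untreated and at 129, 146 and 93.0 after Aldara, where the lowest Aldara library was just under the highest untreated one, replicate 3. Its log2 fold change was 1.44 (SE 0.29, adjusted p = 0.0106) and 0.98 (SE 0.26, adjusted p = 0.0202) in the floxed control and Il12rb2-deleted cells. Dhcr7, which makes cholesterol from 7-dehydrocholesterol, was at 51.9, 72.1 and 65.9 CPM in untreated floxed control libraries and at 116, 83.1 and 99.5 after Aldara. Il12rb2-deleted libraries held Dhcr7 at 52.7, 44.6, 50.2 and 52.5 CPM untreated and at 118, 91.7 and 97.7 after Aldara. No Aldara library reached down to the untreated range, and the averaged log2 fold change was 0.84 (SE 0.15, adjusted p = 0.00069).

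Sc5d, which makes 7-dehydrocholesterol and so stands 1 step before Dhcr7, went the other way. It was at 44.6, 59.3 and 73.7 CPM in untreated floxed control libraries and at 23.4, 22.5 and 57.3 after Aldara, where replicate 3 stayed within the untreated range. Il12rb2-deleted libraries held Sc5d at 95.1, 58.8, 86.8 and 97.1 CPM untreated and at 34.0, 17.9 and 18.1 after Aldara, without overlap. Its log2 fold change was -1.86 (SE 0.37, adjusted p = 0.00392) in Il12rb2-deleted cells and -0.78 (SE 0.37, adjusted p = 0.25) in floxed control cells, where it did not pass unless Aldara replicate 3 was left out (-1.36, adjusted p = 0.0331). The other 5 enzymes of this segment did not pass on average. Cyp51, lanosterol demethylase, had a log2 fold change of 0.57 (SE 0.21, adjusted p = 0.0646) and Ebp, the sterol isomerase, of 0.52 (SE 0.22, adjusted p = 0.0973). Fdft1, squalene synthase, had 0.33 (SE 0.20), Lbr 0.13 (SE 0.14) and Tm7sf2 -0.05 (SE 0.27). Fdft1 shares 18.3% of its exonic length with Ctsb on the opposite strand and Tm7sf2 shares 12.1% with Vps51, so their counts are uncertain.

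**Figure D3:**
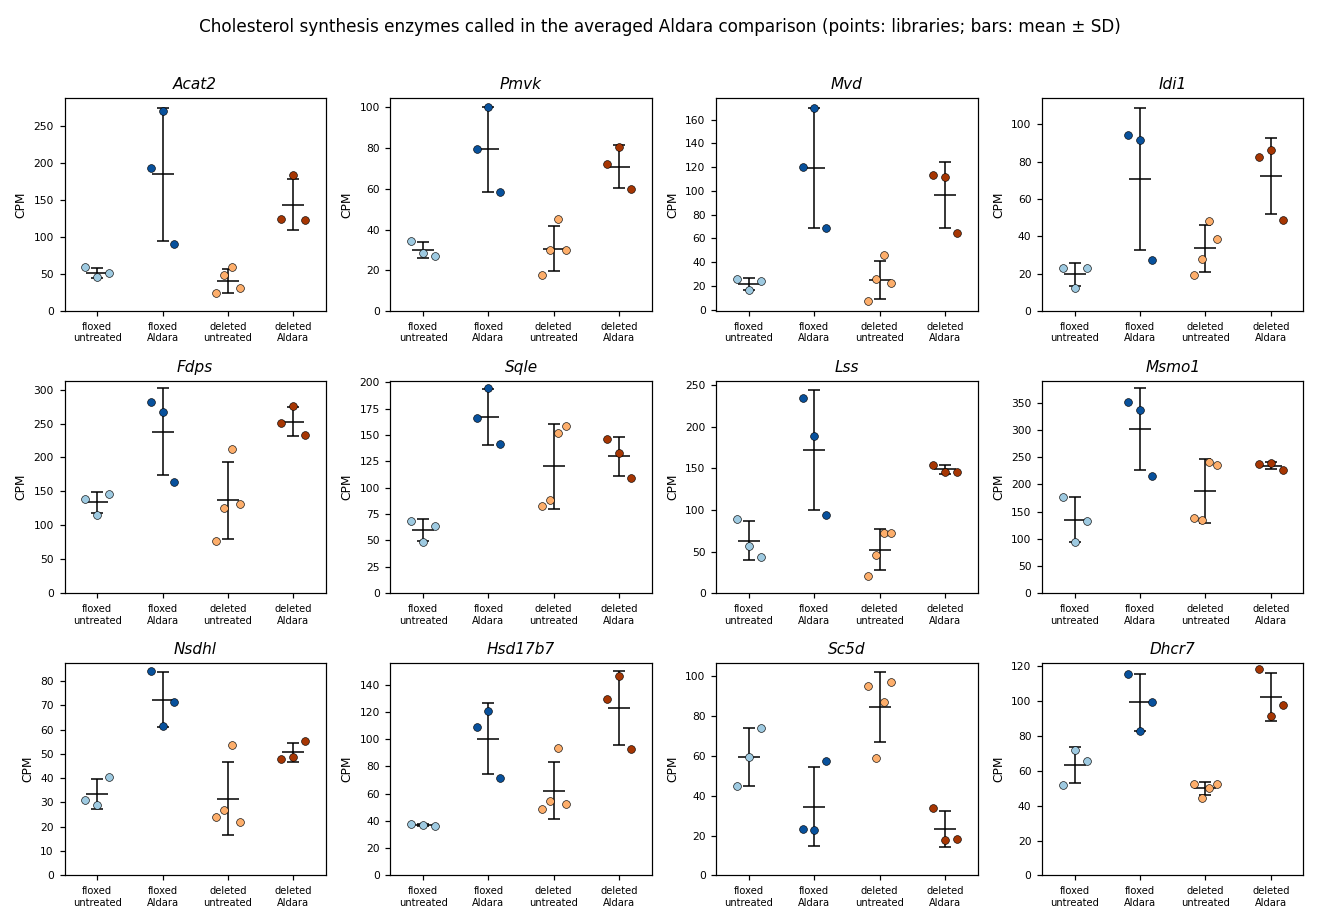
CPM (linear axes) of the 12 enzymes that passed the averaged Aldara test, with 1 point for each library, in replicate order, and bars for the group mean ± SD. Aldara libraries lie above all untreated ones for Acat2, Pmvk, Mvd, Lss and Dhcr7, and for Sc5d all but floxed control replicate 3 lie below them.

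Summed over the 20 enzymes, untreated libraries held 1698, 1429 and 1924 CPM in floxed control cells and 1606, 1713, 2551 and 2409 in Il12rb2-deleted cells. After Aldara the sums were 3310, 3468 and 2425 CPM in floxed control cells and 2849, 2949 and 2596 in Il12rb2-deleted cells. Floxed control Aldara replicate 3 thus lay below Il12rb2-deleted untreated replicate 3. That Aldara library had the lowest level of its group for 13 of the 20 enzymes, where it was lowest for 39.9% of all genes tested. It also stood apart in hair follicle markers, with a sum of 590.0 CPM, 531 of them Sox9, against 193 and 123 CPM in the other Aldara libraries of floxed control cells, and the part of this in its enzyme levels was not tested. Among untreated Il12rb2-deleted libraries, replicates 3 and 4 were the highest for 10 and 7 of the 20 enzymes, where they were highest for 21.2% and 24.6% of all genes. These 2 libraries had the lowest numbers of detected genes of all 13 (14320 and 14620) and almost no Gm10800, and the part of this in the enzyme levels was not tested.

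Markers of sebaceous glands, which make sterols and other lipids and whose cells a sort could also hold, were mostly higher after Aldara, as the enzyme sums were. All 13 listed markers were detected, though Dgat2l6 was at 0 in at least 1 untreated library of each genotype, and 10 rose on average after Aldara, with a list median of 2.07. Their summed level was 5293, 2317 and 2038 CPM in untreated and 8884, 10478 and 6576 in Aldara libraries of floxed control cells. In Il12rb2-deleted cells the sum was 845, 4244, 3014 and 1177 CPM untreated and 4795, 6275 and 7240.0 after Aldara. Within each genotype every Aldara library lay above every untreated one. Across genotypes, floxed control untreated replicate 1 at 5293 CPM lay above Il12rb2-deleted Aldara replicate 1 at 4795 CPM. The order of libraries by marker sum matched that by enzyme sum in the floxed control Aldara group, and not in the other groups. Il12rb2-deleted Aldara replicate 3 had the highest marker sum of its group, 7240.0 CPM, and the lowest enzyme sum, 2596 CPM. Many of the list's genes are lipid enzymes that keratinocytes can express too, and Soat1 and Scd1 are also in lists used below. Keratinocyte markers moved the opposite way, with 7 of 8 lower after Aldara and only Trp63 short of the threshold, and 5 of 6 fibroblast markers were lower. Of the 3 tested neutrophil markers, S100a8 and S100a9, which inflamed keratinocytes also express, rose with log2 fold changes of 4.46 and 3.26, and the summed level of the 5 listed was 0.544 to 20.0 CPM in untreated and 18.4 to 183 CPM in Aldara libraries. Of 7 tested hair follicle markers Sox9 rose (1.18, SE 0.36, adjusted p = 0.0245) and Cd34 and Krt25 fell, and the sums were 85.5 to 194 CPM untreated and 123 to 590.0 CPM after Aldara. In the endothelial, T cell and macrophage lists 0 markers rose and 1 each fell (Rgs5, Trbc2 and Cd207), and no melanocyte or adipocyte marker passed. Shh was at 0 in all Aldara libraries of floxed control cells, Krt25 and Cd207 in those of Il12rb2-deleted cells, and Adipoq in both. The part of these markers in the members' changes was not tested.

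Of the 5 control genes, Scap rose and Insig2 fell on average. Scap was at 153, 151 and 172 CPM in untreated floxed control libraries and at 244, 304 and 165 after Aldara, with replicate 3 within the untreated range. Il12rb2-deleted libraries held Scap at 156, 125, 114 and 129 CPM untreated and at 239, 284 and 299 after Aldara, without overlap. Its log2 fold change was 1.06 (SE 0.21, adjusted p = 0.00398) in Il12rb2-deleted cells and 0.58 (SE 0.23, adjusted p = 0.145) in floxed control cells. A gene on the opposite strand, 5830462I19Rik, covers 13.2% of its exonic length. Insig2 was at 158, 104 and 128 CPM in untreated floxed control libraries and at 119, 85.0 and 97.9 after Aldara. Il12rb2-deleted libraries held Insig2 at 95.0, 152, 107 and 86.5 CPM untreated and at 53.3, 83.1 and 73.5 after Aldara. The averaged log2 fold change of Insig2 was -0.51 (SE 0.18, adjusted p = 0.0484), a small change that passed in 3 of the 13 fits with 1 library left out.

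Insig1, itself an SREBP target, was at 30.3, 23.3 and 44.0 CPM in untreated floxed control libraries and at 67.7, 60.2 and 66.0 after Aldara, without overlap. Il12rb2-deleted libraries held Insig1 at 42.3, 32.7, 59.0 and 53.0 CPM untreated and at 55.8, 41.5 and 42.5 after Aldara, with overlap. Its log2 fold change was 0.99 (SE 0.28, adjusted p = 0.047) in floxed control cells, which passed in 2 of the 13 fits with 1 library left out, and -0.01 (SE 0.26) in Il12rb2-deleted cells. Srebf1, the SREBP1 gene, was at 148, 144 and 183 CPM in untreated floxed control libraries and at 440.3, 292 and 107 after Aldara, so that its Aldara libraries lay both above and below the untreated ones. Il12rb2-deleted libraries held Srebf1 at 124, 121, 189 and 168 CPM untreated and at 196, 186 and 330.2 after Aldara. Its averaged log2 fold change was 0.74 (SE 0.26, adjusted p = 0.0532), and 0.93 (adjusted p = 0.00311) without floxed control Aldara replicate 3.

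Srebf2, the SREBP2 gene, was at 101, 120.3 and 137 CPM in untreated floxed control libraries and at 102, 125 and 118 after Aldara. Il12rb2-deleted libraries held Srebf2 at 104, 84.4, 182 and 173 CPM untreated and at 155, 121 and 127 after Aldara. The ranges overlapped in both genotypes, and its averaged log2 fold change was -0.04 (SE 0.19, adjusted p = 0.916). The transcript of Srebf2 thus had no difference past the test in a comparison where 11 of 20 enzymes rose, and SREBP2 protein and its cleavage were not measured.

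Among the genes of uptake and traffic, Npc1 and Npc2 changed in opposite directions. Both proteins move cholesterol out of the lysosome, Npc2 as a soluble carrier that hands it to the membrane protein Npc1. Npc2 was at 162, 78.5 and 113 CPM in untreated floxed control libraries and at 225, 209.6 and 186 after Aldara. Il12rb2-deleted libraries held Npc2 at 118, 123, 106 and 105 CPM untreated and at 245, 219 and 174 after Aldara. Every Aldara library was above every untreated one, and the averaged log2 fold change was 0.86 (SE 0.17, adjusted p = 0.00154). Npc1 was at 74.1, 80.6 and 69.1 CPM in untreated floxed control libraries and at 55.7, 44.4 and 26.8 after Aldara, with all Aldara libraries lower. Il12rb2-deleted libraries held Npc1 at 53.5, 59.6, 48.4 and 48.5 CPM untreated and at 21.8, 25.0 and 35.9 after Aldara, again lower in all. Its averaged log2 fold change was -0.87 (SE 0.19, adjusted p = 0.00359). Stard4, a soluble sterol carrier, was at 34.4, 42.0 and 45.3 CPM in untreated floxed control libraries and at 31.5, 27.2 and 18.9 after Aldara. Il12rb2-deleted libraries held Stard4 at 40.7, 30.9, 47.9 and 69.6 CPM untreated and at 51.8, 25.4 and 17.9 after Aldara. Replicate 1 was the high one of those Aldara libraries. The averaged log2 fold change of Stard4 was -0.62 (SE 0.26, adjusted p = 0.101), and -0.89 (adjusted p = 0.0125) without that library.

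The exporters Abcg1 and Abca1, both known targets of liver X receptors, also parted. Abcg1 was at 22.5, 28.3 and 51.2 CPM in untreated floxed control libraries and at 9.32, 3.14 and 10.0 after Aldara. Il12rb2-deleted libraries held Abcg1 at 41.7, 25.0, 14.9 and 63.9 CPM untreated and at 0, 5.43 and 1.16 after Aldara. The 0 is a library with no count, which allows a level of up to 0.307 CPM (3 counts, counting error only). All 6 Aldara libraries were below all 7 untreated ones, and the averaged log2 fold change was -3.09 (SE 0.63, adjusted p = 0.00212), the largest decrease of any member. By genotype it was -4.02 (SE 0.92, adjusted p = 0.00872) in Il12rb2-deleted cells and -2.17 (SE 0.86, adjusted p = 0.149) in floxed control cells, where it passed without Il12rb2-deleted Aldara replicate 1 (-2.16, adjusted p = 0.0432). Abca1, whose promoter with 1 E-box is printed above, was at 54.2, 46.4 and 37.5 CPM in untreated floxed control libraries and at 107, 61.0 and 20.7 after Aldara, a spread that covered the untreated range. Il12rb2-deleted libraries held Abca1 at 33.0, 57.6, 20.0 and 29.5 CPM untreated and at 79.8, 109.8 and 102 after Aldara, without overlap. Its log2 fold change was 1.48 (SE 0.43, adjusted p = 0.0286) in Il12rb2-deleted cells and 0.45 (SE 0.46, adjusted p = 0.646) in floxed control cells. The Il12rb2-deleted call of Abca1 passed in 8 of the 13 fits with 1 library left out, with an adjusted p of 0.0879 without Aldara replicate 2.

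**Figure D4:**
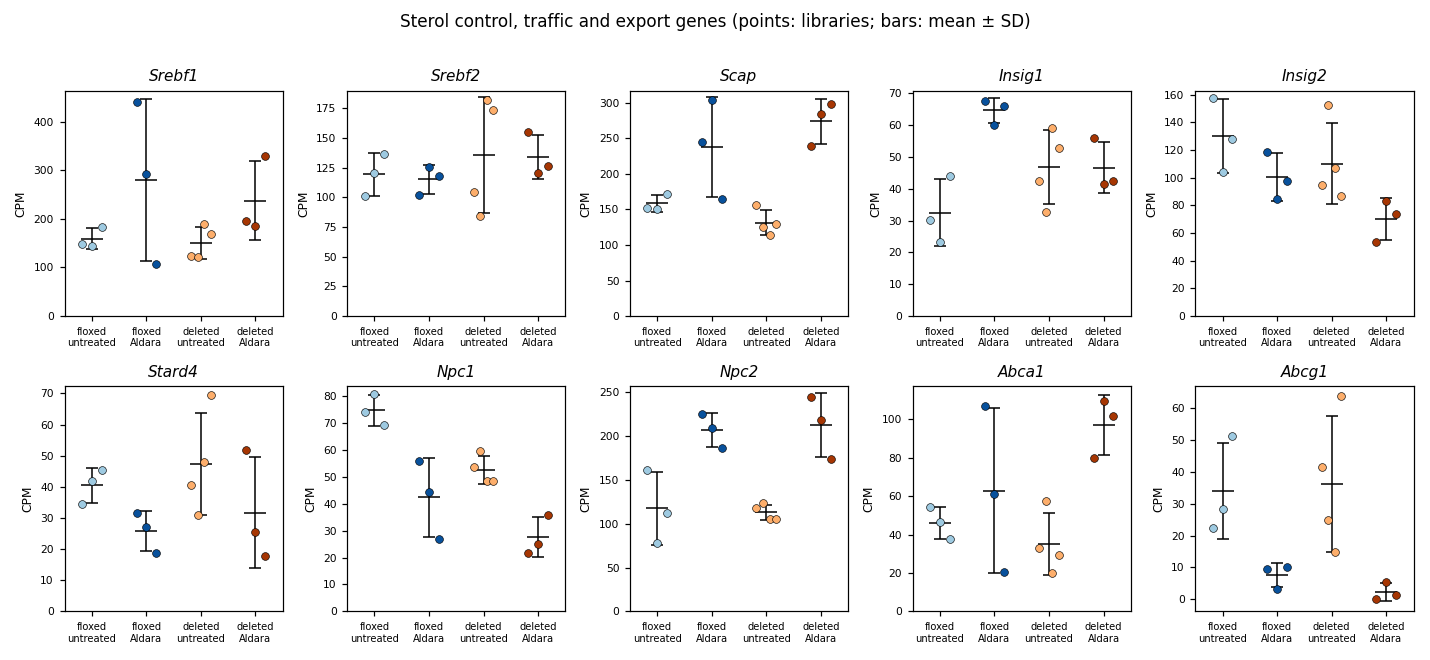
CPM (linear axes) of the 10 control, traffic and export genes, with 1 point for each library, in replicate order, and bars for the group mean ± SD. Npc2 is higher and Npc1 and Abcg1 are lower in the Aldara libraries of each genotype, while Srebf2 overlaps throughout.

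Taken genotype by genotype, fewer members passed. The members' median log2 fold change was 0.68 in floxed control cells, against -0.13 over all genes tested. It was 0.28 in Il12rb2-deleted cells, against -0.09. In floxed control cells 9 of 30 members rose and 0 fell, where 4.15% of all genes rose and 2.90% fell. The Aldara libraries lay wholly above the untreated ones for 15 members and wholly below for 3, where 13.1% and 14.7% of all genes did so. None of the 9 calls held in all fits with 1 library left out. Without floxed control untreated replicate 2 no member passed, where 104 of 16624 genes rose and 111 fell. The adjusted p of the 9 then ran from 0.0548 for Sqle to 0.209 for Insig1. Without untreated replicate 3 only Sqle passed, where 154 of 17330 genes rose and 134 fell. Without Aldara replicate 1, 5 members rose, where 251 of 17348 genes rose. Without Aldara replicate 2, 4 members rose, where 336 of 17473 genes rose. Without the 3 libraries above 5% Gm10800, 2 members passed, Mvd and Sqle, where 166 of 15863 genes rose and 104 fell. The fold changes moved less: Mvd was at 2.27 and Acat2 at 1.75 without untreated replicate 2. In Il12rb2-deleted cells 10 members rose and 3 fell, where 7.81% and 7.69% of all genes did so, and ranges were apart for 10 higher and 4 lower members, against 14.2% and 14.8%. Of these 13 calls, 8 held in all fits with 1 library left out: Acat2, Pmvk, Mvd, Lss, Dhcr7, Scap, Sc5d and Abcg1. Of the others, Fdps (0.89, SE 0.28, adjusted p = 0.0457) passed in 2 of the 13 fits and was at an adjusted p of 0.137 without Aldara replicate 2. Hsd17b7, Npc1, Npc2 and Abca1 passed in 9, 9, 12 and 8 of the fits, missing when 1 of the Il12rb2-deleted libraries was left out, with adjusted p-values of up to 0.105, for Npc1 without Aldara replicate 1. Without that replicate, 7 members rose and 2 fell, where 858 of 17296 genes rose and 824 fell. Without the 3 libraries above 5% Gm10800, 6 members rose and 2 fell, where 699 of 15863 genes rose and 767 fell. Acat2, Pmvk, Mvd and Hsd17b7 rose in both genotypes, and the share of all genes tested that did so was not counted.

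Genes around the members were read from lists of the same pathways, beside the 24.9% of all genes tested that changed (2080 up, 1914 down) and the median log2 fold change of -0.15 over all genes. In the averaged Aldara comparison, Mbtps1, the protease that makes the first cleavage of SREBPs, had a log2 fold change of -0.44 and Rnf145 of -0.51, and neither passed. Of 12 tested genes of other steps and branches of the route, 6 rose and 0 fell, with a list median of 0.66. The first 4 by p were Pdss1 (2.67, SE 0.36, adjusted p = 0.000133) and Coq2 (0.89) of the coenzyme Q branch, Nus1 (1.32) of the dolichol branch, and the thiolase Acat1 (0.89). The fatty acid branch had 8 of 16 genes that rose, led by Fasn, fatty acid synthase (1.81, SE 0.26, adjusted p = 0.000174), Me1 (1.61), Gpam (1.53) and Mid1ip1 (1.33), and 2 that fell, with a list median of 1.10.

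Of 10 tested genes of lipoprotein uptake and lysosomal release, 0 rose and 3 fell, with a list median of -0.21. These were Mylip, which sends lipoprotein receptors to degradation (-1.52, SE 0.29, adjusted p = 0.00155), the receptor Lrp1 (-1.22, SE 0.23, adjusted p = 0.00136) and Lamp2 (-0.65). Among 10 tested genes of liver X receptors, oxysterols and esterification, 4 rose and 1 fell, with a list median of 0.18. The 4 were Soat1, which esterifies cholesterol (1.94, SE 0.39, adjusted p = 0.00216), Cyp7b1, an oxysterol hydroxylase (2.87), the receptor Nr1h3 (1.77) and its target Lpcat3 (1.14). Of 11 intracellular sterol transport genes 1 rose, Tspo (0.69), and 3 fell, Cav1 (-1.59, SE 0.27, adjusted p = 0.000602), Osbpl9 (-1.07) and Osbpl5 (-0.85), with a list median of -0.33.

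Il12rb2 deletion gave no call among the members. In untreated cells 0 of 30 passed in DESeq2, which called 16 genes up and 2 down of 12547. In limma voom 0 members and 0 genes passed. With edgeR's quasi-likelihood test 0 of 30 passed too, where 0.00% of all genes passed. At an unadjusted p under 0.05 there were 3 members, where 3.73% of all genes had such a p. Sqle was higher in Il12rb2-deleted cells by a log2 fold change of 1.00 (SE 0.26, unadjusted p = 0.00163, adjusted p = 1), Hsd17b7 by 0.75 (SE 0.27, unadjusted p = 0.0139) and Cyp51 by 0.77 (SE 0.30, unadjusted p = 0.0198). The 4 Il12rb2-deleted libraries lay above the 3 floxed control ones for Sqle and Hsd17b7 and below them for Npc1, where 2.77% and 3.26% of all genes were so placed. Cyp51 was at 109.6, 91.4 and 116 CPM in floxed control and at 118, 112, 232 and 259 in Il12rb2-deleted libraries, where replicates 3 and 4 were the high ones. The Sqle difference was 0.87 without Il12rb2-deleted replicate 3 and 0.84 without replicate 4.

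After Aldara 0 of 30 members passed between the genotypes in DESeq2, which called 6 genes up and 24 down of 17650. In limma voom 0 members and 0 genes passed. With edgeR 0 of 30 passed too, where 0.00% of all genes did so. At an unadjusted p under 0.05 there were 2 members, where 4.30% of all genes had such a p. Mvk had a log2 difference of -0.88 (SE 0.35, unadjusted p = 0.0237, adjusted p = 0.982) and Npc1 of -0.62 (SE 0.28, unadjusted p = 0.0414). Insig2 was the next by p, with -0.52 (SE 0.26, unadjusted p = 0.0631). Mvk was at 52.3, 44.9 and 94.8 CPM in floxed control Aldara libraries and at 28.5, 38.8 and 36.7 in Il12rb2-deleted ones. The Il12rb2-deleted libraries lay below the floxed control ones for Mvk, Nsdhl, Insig1 and Insig2 and above them for no member, where 4.72% and 4.37% of all genes were so placed.

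The difference between the Aldara effects of the genotypes, the interaction, passed for 0 of 30 members in DESeq2. That method called 0 genes up and 3 down of 24235. In limma voom 0 members and 0 genes passed. With edgeR 0 of 30 passed too, where 0.00% of all genes passed. Members with an unadjusted p under 0.05 numbered 2, where 3.36% of all genes had such a p. For Sqle the Aldara effect was 1.47 in floxed control and 0.11 in Il12rb2-deleted cells, an interaction of -1.37 (SE 0.38, unadjusted p = 0.00241, adjusted p = 1). For Insig1 the effects were 0.99 and -0.01, an interaction of -0.99 (SE 0.38, unadjusted p = 0.0204). Sc5d followed with -1.08 (SE 0.51, unadjusted p = 0.0528). The SEs of the interaction over the 30 members ran from 0.288 for Lbr to 1.16 for Abcg1 on the log2 scale. A p that misses the threshold does not show that the genotypes responded alike.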

How the data were processed

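The authors deposited 1 table of raw counts, the reads assigned to each gene in each sample, without normalization. STAR, featureCounts (Subread) and GRCm38 are named in the submitters' processing notes. The handling of reads that map more than once, like tool versions, annotation and strand setting, is not given in the sources used here. Per the labels' protocols, total RNA was made into Smart-seq2 libraries, which neither mark strand nor carry molecular identifiers, and read as single ends of 100 bases.

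The 30 members, the related lists and the markers were chosen with earlier results of these data known. Members called in any comparison, and all control, traffic and export genes, were to be named with full values, others with a fold change, and up to 4 genes by p from each related list, of which some are not reported here. In R 4.3.3, edgeR 4.0.16 kept genes with filterByExpr (minimum count 10, 16051 genes) and scaled by TMM. A quasi-likelihood fit had 1 coefficient for each of the 4 groups over all 13 libraries, and gave 6 comparisons: Aldara in each genotype and averaged, deletion in each treatment, and their interaction. P-values were adjusted by Benjamini-Hochberg over all genes tested, and "rose", "fell" and "passed" mean an adjusted p under 0.05. SEs are the log2 fold change over the root of F. CPM is TMM-adjusted, and RPKM values use exonic lengths of GENCODE M21. Alternatives included DESeq2 1.42.0 and limma 3.58.1 voom, other scaling and filters, a replicate block and each library left out. The steps were tested on simulated counts.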

Additional observations from a re-analysis of the deposited data

Results flagged for a closer look

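Only the untreated Il12rb2-deleted group, with 4 libraries, was large enough for the check of single libraries far from the rest, and chance alone gives such a result in about 1 of 20 groups. Of the 30 members checked there, 2 had such a library, and it was replicate 3 both times. Nsdhl was at 53.7 CPM in that library and at 21.8 to 26.9 CPM in the other 3, a gap of 0.84 of the whole range, past the critical value for 4 samples. Hsd17b7 was at 93.5 CPM there and at 48.6 to 54.3 CPM in the others, a gap of 0.874 of the range. Without that library the Aldara effect of Nsdhl in Il12rb2-deleted cells was a log2 fold change of 1.07 (adjusted p = 0.00999, edgeR quasi-likelihood test), against 0.68 with it.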

How the results depend on the processing

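The members' calls were recomputed with DESeq2's size factors, no filter on low counts, DESeq2, limma voom, the 2 groups alone, a replicate block, 13 fits with 1 library left out, fits without predicted Gm genes, and fits without libraries rich in Gm10800. Of 3960 values of single members, none changed sign while passing in either fit, 142 lost and 38 gained a call, and 209 that passed in neither changed sign. In floxed control cells the 0 members that fell became 2 with DESeq2, 1 with limma voom and 1 with only the 2 groups compared, and from 0 to 1 with 1 library left out. The 9 that rose were 12 with DESeq2 and 10 with limma voom, and ran from 0 to 10 with 1 library left out. They were 0 without libraries over 1% Gm10800, a fit of 6 libraries, and, added after the data were seen, 2 without the 3 libraries over 5% and 4 when Il12rb2-deleted Aldara replicate 1 was left out too. Over all genes tested, the floxed control calls went from 666 up and 466 down to 104 and 111 without untreated replicate 2. With DESeq2 those calls were 1098 up and 1071 down of 14410 genes, and with limma voom 866 and 712 of 16051. They were 3 and 49 of 14902 without libraries over 1% Gm10800, and 166 and 104 of 15863 without libraries over 5%. With Il12rb2-deleted Aldara replicate 1 out too, they were 264 and 309 of 15582. In Il12rb2-deleted cells the 10 that rose ran from 7 to 11 and the 3 that fell from 2 to 3 with 1 library left out. The added checks gave 6 that rose without libraries over 5% Gm10800, where 699 of 15863 genes rose. They gave 3 when Il12rb2-deleted Aldara replicate 1 was out too, where 635 of 15582 genes rose. Averaged over genotypes, 13 to 16 members rose and 3 to 4 fell with 1 library left out. The added check without libraries over 5% Gm10800 gave 11 that rose and 3 that fell, where 1432 of 15863 genes rose and 1190 fell. It gave 10 and 3 when Il12rb2-deleted Aldara replicate 1 was out too, and 12 of the 18 main calls were then kept. In that last fit 1431 of 15582 genes rose and 1284 fell. The comparisons of genotypes and the interaction gave 0 members in all of these fits, and the cause of the changes was not tested.

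The labels do not say whether replicate numbers pair the samples. The deviations of 18 same-numbered pairs correlated at -0.16 to 0.42, with 6 pairs over 0.1, and 6 of 13 libraries correlated best with their own number. These values do not settle whether samples were paired, because no level to be met by chance was computed. With the replicate block, 8 members rose and 0 fell in floxed control cells, where 487 of 16051 genes rose and 344 fell. In Il12rb2-deleted cells 8 members rose and 2 fell, where 978 genes rose and 941 fell. On average 15 members rose and 3 fell, where 1902 genes rose and 1679 fell. The fit without libraries over 1% Gm10800 was not run for comparisons that use Il12rb2-deleted Aldara libraries, all of which exceed that share, and the 2 groups alone allow no averaged effect or interaction.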
